A study of Mus musculus with 26 samples.

Results

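The genes described here encode the enzymes that build purine and pyrimidine nucleotides from small precursors. They were chosen by name, as every probe set whose single gene symbol in the platform annotation was Cad, Umps, Ppat, Paics, Gart, Atic, Impdh1, Impdh2, Gmps or Ctps. Of these 10 genes, 7 were measured, with 15 probe sets among 22626, or 7 of 12393 named genes. Cad and Ppat had 2 probe sets each, Umps, Paics and Gart had 3 each, and Impdh1 and Ctps had 1 each, while no probe set carried the name Atic, Impdh2 or Gmps, so these 3 were not analysed here. The study measured messenger RNA on 26 oligonucleotide arrays in the mouse T-lymphoma line S49, whose growth responds to cyclic AMP (cAMP). Wild-type (WT) cells and the variant Kin-, known for lacking the activity of the cAMP-dependent protein kinase (PKA), were left untreated or were given 8-CPT-cAMP, an analog of cAMP that enters cells, at 100 µM for 2, 6 or 24 h. Each treated group had 3 arrays (WT at 2, 6 and 24 h, Kin- at 2, 6 and 24 h) and each untreated group had 4 (Kin- at 0 h, WT at 0 h). Untreated cells were measured at 0 h only, so within a line the analog cannot be told apart from time in culture. Both lines come from 1 mouse tumour. The labels do not say whether the arrays of each group stand for separate cultures, or whether the 0 h cells received a vehicle. The p-values therefore measure array-to-array spread, part or all of which may be technical.

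De novo synthesis assembles the pyrimidine ring and attaches it to ribose phosphate, whereas the purine ring is built step by step on ribose phosphate itself. Dividing lymphocytes are known to rely on both routes for RNA, DNA and cofactors, and several of the genes are known targets of the transcription factor Myc. Inosine monophosphate, the product of the purine route, is the branch point from which adenine and guanine nucleotides are made.

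Levels are square roots of the deposited scores, read as log2 intensities. This reading is an assumption, and 1 unit may not be an exact doubling. A change is the difference of 2 group means in these units, given with its standard error (SE) from limma, and a gene was called where the Benjamini-Hochberg adjusted p over all probe sets was under 0.05. The brightest probe set stands for a gene unless another is named, and levels are compared between arrays of 1 probe set only. Of the T-lymphocyte markers, 8 were measured, with mean levels between 9.15 and 12.87 in untreated WT cells. At 24 h in WT cells they did not move together: Cd28 averaged 11.86 there and 9.39 in untreated WT cells, Rag1 7.12 and 11.56, and Ptcra 4.24 and 9.15, whereas the means of the other 5 lay between 11.08 and 13.29. The 11 measured markers of B cells, myeloid cells, fibroblasts and erythroid cells had means between 2.63 and 5.80 there. At 24 h in WT cells these 11 had means between 2.65 and 6.61, the highest being that of the myeloid integrin gene Itgam (6.61 in WT cells at 24 h, 4.50 in untreated WT cells). The part of these marker changes in any result was not tested, and fewer cells of a type cannot be told apart from less RNA per cell. In untreated Kin- cells the kinase subunit genes read 8.62 for Prkaca and 8.53 for Prkacb, against 8.83 and 8.56 in untreated WT cells. Neither difference was called (limma, adjusted p = 0.395 for Prkaca and 0.999 for Prkacb), although that of Prkaca was -0.21 ± 0.10. These transcript levels do not check the loss of kinase activity. The 10 arrays numbered 1 to 14 and the 16 numbered 16 to 47, as the labels number them, form sets that every group spans, so values within each set are given beside the results that move most between them.

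The promoters of the measured genes are shown first, because the genes below moved in the same direction by different amounts. RefSeq (GRCm38.p6) gives 9 promoter windows for the 7 genes, each running from 250 bases before the annotated start through its first 50 bases. Capitals mark the E-box CACGTG, the site bound by Myc, and TGACG or its reverse complement CGTCA, the core of the cAMP response element; both strands were searched, and the E-box and the core share no base in these windows. Ppat (chr5:76951529-76951828, minus strand) and Paics (chr5:76951052-76951351, plus strand) are neighbours on opposite strands with starts 276 bases apart. They are shown as the pair with the largest and the next to smallest change at 24 h by brightest probe set. Cad (chr5:31054530-31054829, plus strand) and Umps (chr16:33966989-33967288, minus strand) are shown as the pyrimidine ring enzymes with 2 such cores each.
Ppat: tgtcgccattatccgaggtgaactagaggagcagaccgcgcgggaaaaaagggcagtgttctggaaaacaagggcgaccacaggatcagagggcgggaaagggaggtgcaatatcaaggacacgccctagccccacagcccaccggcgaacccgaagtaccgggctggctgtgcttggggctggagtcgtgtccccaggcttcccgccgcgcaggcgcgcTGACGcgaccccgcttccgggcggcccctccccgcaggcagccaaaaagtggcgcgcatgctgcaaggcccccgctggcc
Paics: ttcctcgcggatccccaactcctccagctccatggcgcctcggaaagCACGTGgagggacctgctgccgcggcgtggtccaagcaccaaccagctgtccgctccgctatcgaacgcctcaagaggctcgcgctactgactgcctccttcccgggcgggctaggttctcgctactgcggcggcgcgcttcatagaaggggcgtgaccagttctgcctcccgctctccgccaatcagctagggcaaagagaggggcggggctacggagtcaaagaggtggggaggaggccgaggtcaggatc
Cad: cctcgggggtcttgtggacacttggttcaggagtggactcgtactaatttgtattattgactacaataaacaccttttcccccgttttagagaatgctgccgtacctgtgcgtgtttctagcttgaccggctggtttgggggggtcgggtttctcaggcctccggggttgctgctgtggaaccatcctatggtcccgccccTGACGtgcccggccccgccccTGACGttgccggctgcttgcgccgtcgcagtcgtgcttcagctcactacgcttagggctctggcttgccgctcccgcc
Umps: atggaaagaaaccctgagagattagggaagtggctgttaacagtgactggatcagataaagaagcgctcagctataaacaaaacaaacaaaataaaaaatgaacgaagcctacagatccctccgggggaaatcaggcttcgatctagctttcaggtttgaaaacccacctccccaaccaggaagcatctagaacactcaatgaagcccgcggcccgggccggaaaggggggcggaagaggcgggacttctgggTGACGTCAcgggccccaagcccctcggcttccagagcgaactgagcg
Positions count the first base of a match from the annotated start. Ppat held a core at -30, Cad held cores at -49 and -28, and Umps held them at 4 and 7 on opposite strands, overlapping by 2 bases. Gart held a core at -166, the second annotated start of Impdh1 held one at 39, and the second start of Ctps held them at -202 and -146. In all, 6 of the 9 windows, 1 from each of 6 genes, had a core, which 20.8% of all 32851 promoter windows hold, and the overlapping pair of Umps is in 1.79% of windows. Paics, the gene without a core, held the only E-box, at -203; 7.15% of windows have one. These matches describe letters in the windows and not binding, and bases outside the windows were not searched.

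WT cells at 24 h were set against untreated WT cells to ask which transcripts differed after a day with the analog. Of the 7 genes, 6 were lower at 24 h, against 16.3% of all named genes called lower in this comparison. Their range on the 24 h arrays did not overlap that of the untreated arrays. How many of all genes had such separate ranges was not counted. The median change over the 7 genes was -1.94, against -0.01 over all genes. By probe set, 14 of 15 were lower.

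Among the pyrimidine enzymes, Cad joins the first reactions of the route in a single protein. Cad had levels of 9.58, 7.93 and 8.35 on the WT 24 h arrays numbered 4, 19 and 39, against 10.20, 10.76, 10.49 and 10.42 on the untreated WT arrays numbered 1, 13, 16 and 36. All 24 h values lay below all untreated values, with array 4 the highest of the 24 h group. Cad fell by 1.85 ± 0.26 (SE; limma, adjusted p = 7.38e-06), and its other probe set changed by -1.75 ± 0.20. Arrays 16 to 47 alone gave -2.32, and arrays 1 to 14 alone gave -0.90, which did not pass (adjusted p = 0.149); each treated group has 1 array in the lower-numbered set, assumed to vary like the rest.

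Umps encodes the enzyme that completes uridine monophosphate. Its levels were 7.61, 6.80 and 6.83 on the WT 24 h arrays, against 9.07, 9.12, 8.99 and 8.92 on the untreated WT arrays. The groups were separated by more than the whole range of either, and again array 4 was the highest of its group. Umps fell by 1.94 ± 0.16 (adjusted p = 3.85e-09). Its dimmer probe sets changed by -1.59 ± 0.16 and -1.11 ± 0.23, both called lower. The second probe set gave -0.84 in arrays 1 to 14 alone, still called.

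Ctps encodes CTP synthase, which turns uridine triphosphate into cytidine triphosphate. Ctps stood at 8.94, 8.02 and 8.22 on the WT 24 h arrays, against 10.36, 10.35, 10.51 and 10.49 on the untreated WT arrays. The untreated arrays lay within a narrow band and every 24 h array lay below it. The change was -2.04 ± 0.17 (adjusted p = 7.68e-09), and -2.38 in arrays 16 to 47 and -1.41 in arrays 1 to 14, both called.

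Of the purine enzymes, Ppat catalyses the committed first step. Its levels were 8.47, 6.62 and 7.59 on the WT 24 h arrays, against 10.05, 9.88, 9.93 and 9.73 on the untreated WT arrays. The 24 h arrays were spread more widely than those of any other measured gene of the set (SD 0.93, n = 3), yet all lay below the untreated arrays. By brightest probe set Ppat had the largest change of the 7 genes, -2.34 ± 0.27 (adjusted p = 4.88e-07), and 47 of 12393 genes had a lower one. Its second probe set averaged 7.88 in WT cells at 24 h and 9.94 in untreated WT cells. Over all probe sets the largest change, -2.43, was that of a dimmer Gart probe set. Arrays 16 to 47 alone gave -2.72 and arrays 1 to 14 alone -1.50, both called.

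Gart encodes a protein with several activities of the same route, among them a step that uses folate-carried carbon. Gart had levels of 9.53, 8.77 and 8.73 on the WT 24 h arrays, against 11.11, 11.18, 11.21 and 10.97 on the untreated WT arrays. The gap between the groups exceeded 1 unit. The change was -2.11 ± 0.16 (adjusted p = 1.56e-09), and the other probe sets gave -2.43 ± 0.26 and -2.11 ± 0.23.

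Paics encodes a bifunctional enzyme of the middle of the purine route. Paics read 12.08, 11.78 and 11.71 on the WT 24 h arrays, against 12.82, 12.60, 12.72 and 12.93 on the untreated WT arrays. The groups did not overlap, although the change, -0.91 ± 0.12 (adjusted p = 2.05e-06), was smaller than that of its neighbour Ppat. Its 95% interval ran from -1.15 to -0.67, and that of Ppat from -2.89 to -1.78. The other probe sets gave -0.91 ± 0.08 and -1.16 ± 0.12. In arrays 1 to 14 alone the change of the brightest probe set was -0.63 and did not pass (adjusted p = 0.0695).

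Impdh1 encodes an inosine monophosphate dehydrogenase, the enzyme that opens the branch to guanine nucleotides. It stood at 7.67, 7.93 and 7.72 on the WT 24 h arrays, against 8.20, 7.87, 7.97 and 7.99 on the untreated WT arrays. Array 19 lay within the untreated range, so the groups overlapped. The change of -0.24 ± 0.12 did not pass (adjusted p = 0.173), with a 95% interval from -0.49 to 0.02; with arrays weighted by their quality it was -0.26 and passed (adjusted p = 0.0152).

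**Figure D1:**
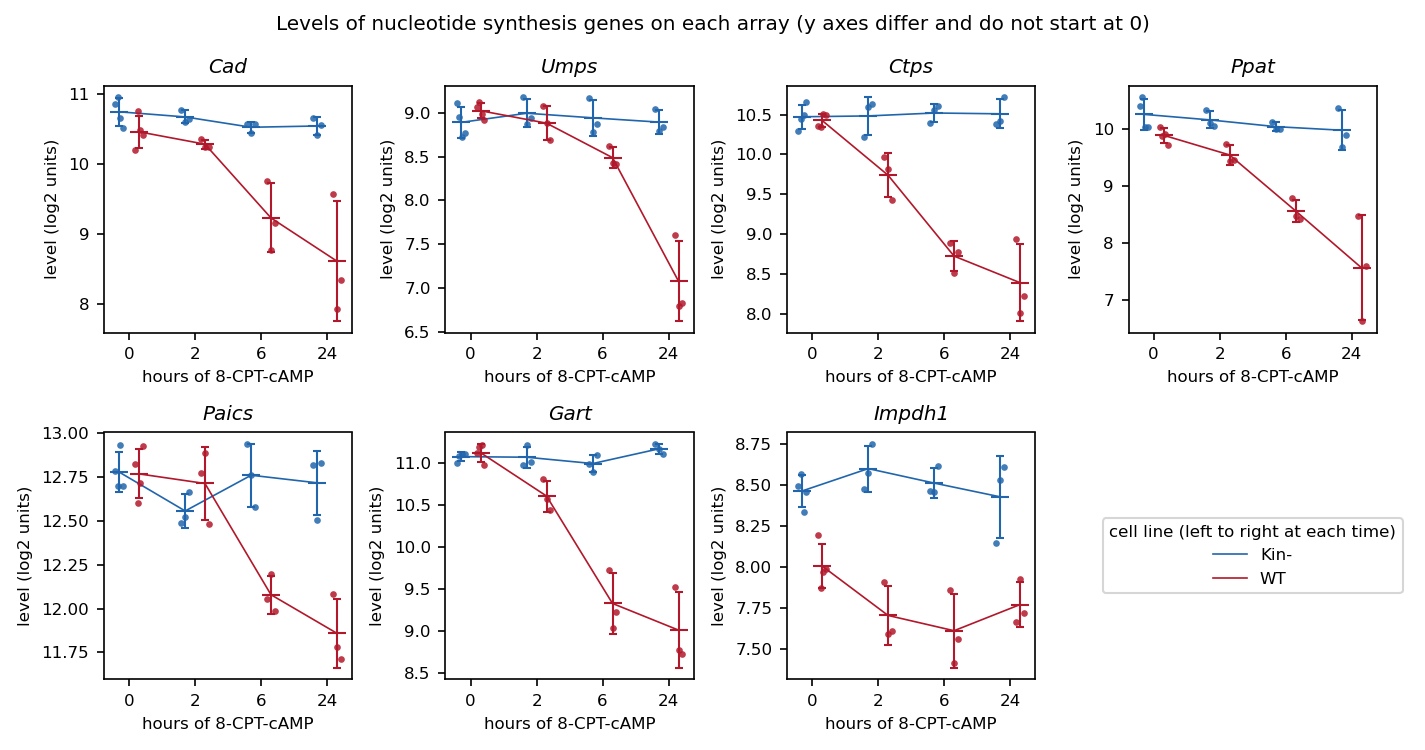
Level of each measured gene (brightest probe set, square root of the deposited score read as log2) on every array, by hours of 8-CPT-cAMP, with Kin- cells left of WT cells at each time; points are arrays, bars are the mean ± SD of 3 or 4 arrays. In WT cells the mean of Ctps is 10.43, 9.74, 8.73 and 8.39 at 0, 2, 6 and 24 h, while in Kin- cells it lies between 10.47 and 10.52.

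**Figure D2:**
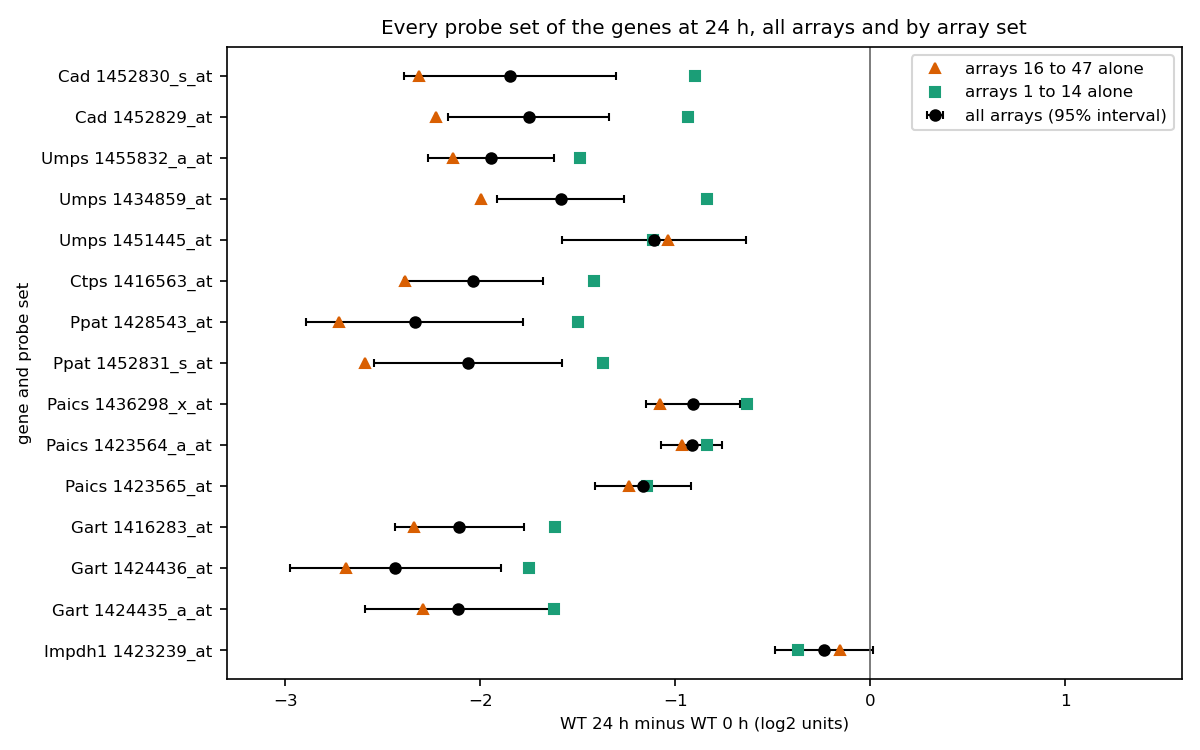
Change at 24 h in WT cells for each of the 15 probe sets, from all arrays (with 95% interval), from arrays 16 to 47 and from arrays 1 to 14. All 15 values lie below 0 in all 3 readings, and only the Impdh1 interval reaches past 0.

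The course over time in WT cells differed between the genes. At 2 h, 2 of the 7 genes were lower, against 8.44% of all genes called lower, and the median change was -0.30, against 0.05 over all genes. Ctps read 9.97, 9.82 and 9.43 at 2 h, all below the untreated WT arrays, a change of -0.69 ± 0.17 (limma, adjusted p = 0.00777). Gart read 10.80, 10.57 and 10.44 at 2 h, also all below the untreated range, a change of -0.51 ± 0.16 (adjusted p = 0.031). The changes of the other 5 genes lay between -0.35 for Ppat and -0.05 for Paics and did not pass. Without array 37, neither Ctps (-0.53, adjusted p = 0.0759) nor Gart (-0.43, adjusted p = 0.159) passed, and without array 1, 13, 16 or 17 Gart did not. In arrays 1 to 14 alone, with 1 array at 2 h, the changes were smaller, at -0.39 for Ctps and -0.34 for Gart. The dimmer probe sets of Gart, at -0.46 and -0.36, did not pass in all arrays.

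At 6 h all 7 genes were lower, against 11.1% of all genes, and so were all 15 probe sets. Each had no overlap between the 6 h and the untreated arrays, but the share of all probe sets without overlap was not counted. The median change was -1.23, against -0.03 over all genes. Gart had the largest change at this time (-1.79 ± 0.16, adjusted p = 5.21e-08), with levels of 9.73, 9.03 and 9.22, and 57 of 12393 genes had a lower one. Ctps followed at -1.70 ± 0.17, then Ppat at -1.33 ± 0.27 and Cad at -1.23 ± 0.26. The 6 h arrays of Cad were at 9.76, 8.78 and 9.17, array 3 being the highest, and those of Ppat at 8.79, 8.48 and 8.42. Paics changed by -0.69 ± 0.12, Umps by -0.54 ± 0.16 and Impdh1 by -0.39 ± 0.12, the smallest (adjusted p = 0.0222).

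The smaller changes at 6 h lay close to the threshold. Umps read 8.63, 8.42 and 8.41 and did not pass without array 18 (-0.50, adjusted p = 0.0696) or array 38 (-0.50, adjusted p = 0.0712). Impdh1 read 7.86, 7.42 and 7.56, array 3 lying just under the lowest untreated array, and did not pass without array 1 (-0.33, adjusted p = 0.0799), array 18 (-0.30, adjusted p = 0.163) or array 38 (-0.37, adjusted p = 0.0857). In arrays 16 to 47 alone all 7 passed at 6 h, with a median change of -1.38. In arrays 1 to 14, with 1 array at 6 h, the median change was -0.72. There Ctps (-1.47), Gart (-1.42) and Ppat (-1.17) changed most. The others were smaller, at -0.72 for Cad, -0.66 for Paics, -0.47 for Umps and -0.17 for Impdh1.

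The change at 6 h was set against the 24 h change of the same probe set. By brightest probe set it was 85.0% for Gart, 83.6% for Ctps, 75.8% for Paics, 66.6% for Cad, 57.0% for Ppat and 27.5% for Umps. This order depended on the probe set. The other probe sets of Umps gave 47.7% and 69.8%, and that of Ppat gave 74.0%. Those of Cad, Paics and Gart lay between 60.3% and 92.3%. The comparisons with 0 h share the untreated arrays, so successive times were also compared. From 2 to 6 h, 5 of 7 genes were lower, against 6.38% of all genes: Gart (-1.28 ± 0.17), Cad (-1.05 ± 0.28), Ctps (-1.01 ± 0.18), Ppat (-0.99 ± 0.29) and Paics (-0.63 ± 0.12). Cad did not pass without array 18 or 38, nor did Ppat without array 2, 17, 18 or 38, and 3 genes were left without array 18 or 38; Umps passed as well without array 4. From 6 to 24 h, 2 of 7 were lower, against 9.84% of all genes: Umps (-1.41 ± 0.17, adjusted p = 2.94e-06) and Ppat (mean 7.56 at 24 h and 8.56 at 6 h, 95% interval of the change from -1.60 to -0.41, adjusted p = 0.0161). In arrays 1 to 14 alone, with 1 array at each of these times, Umps changed by -1.02 and Ppat by -0.32.

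Umps had means of 8.88 ± 0.20, 8.49 ± 0.12 and 7.08 ± 0.46 (SD, n = 3 each) at 2, 6 and 24 h, after 9.02 ± 0.09 (SD, n = 4) at 0 h. The second probe set of Umps also fell from 6 to 24 h (-0.83 ± 0.17, adjusted p = 0.00106), but the dimmest one did not pass (-0.33 ± 0.24). For Ppat the second probe set did not pass (-0.54 ± 0.25, adjusted p = 0.168), and the brightest one did not without array 3 (adjusted p = 0.0669) or array 19 (-0.53, adjusted p = 0.136). Without array 4, the 24 h array with the highest levels of Cad, Umps, Ctps, Ppat, Paics and Gart, 5 genes were lower from 6 to 24 h, Cad (-1.10), Gart (-0.57) and Ctps (-0.61) being added.

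The same exposures were given to Kin- cells to ask which changes are absent from the line known for lacking PKA activity. The lines may also differ in other ways, which cannot be told apart here from the loss of that activity. None of the 7 genes was called at 2, 6 or 24 h in Kin- cells, and 0% of all genes was called at each time (limma, adjusted p); at an unadjusted p under 0.05 there were 0 of the 15 probe sets, against 2.16% of all probe sets at 2 h, 1.90% at 6 h and 2.17% at 24 h. The changes of the 7 genes lay between -0.22 and 0.14 at 2 h, -0.22 and 0.05 at 6 h, and -0.28 and 0.09 at 24 h. Their 95% intervals at 24 h lay between -0.84 and 0.42 in all.

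On the single arrays, Gart read 11.22, 11.17 and 11.10 in Kin- cells at 24 h, against 10.99, 11.08, 11.11 and 11.10 in untreated Kin- cells, and Ctps 10.39, 10.43 and 10.72, against 10.30, 10.45, 10.50 and 10.65. In both genes the groups overlapped. Ppat, with the lowest of these changes (-0.28 ± 0.27), read 10.38, 9.69 and 9.89 in Kin- cells at 24 h, against 10.42, 10.57, 10.04 and 10.04 in untreated ones, and Umps read 9.04, 8.80 and 8.84, against 9.11, 8.95, 8.73 and 8.78.

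**Figure D3:**
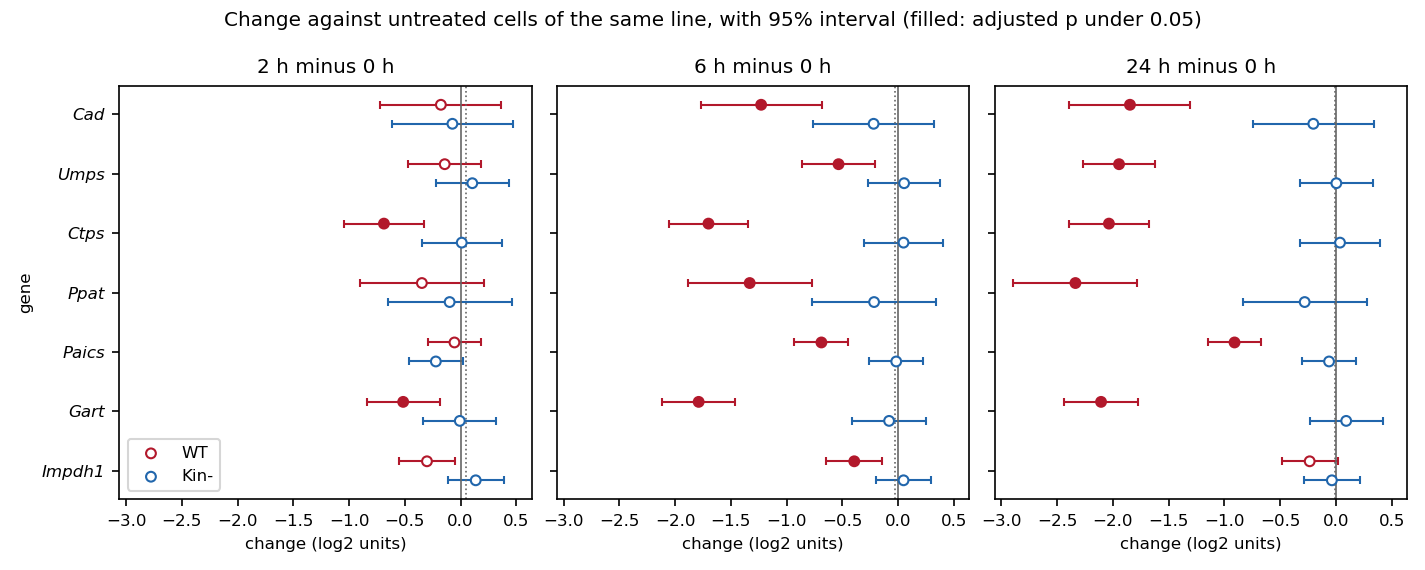
Change against untreated cells of the same line at 2, 6 and 24 h (log2 units), WT above Kin- for each gene, with 95% intervals; filled points passed at adjusted p under 0.05 and the dotted line is the median over all genes in WT cells. WT points move left from 2 to 24 h for 6 genes, to between -2.34 and -0.91, while the Kin- points lie between -0.28 and 0.14.

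The WT response was also tested directly against the Kin- response. At 24 h it was called for 6 of the 7 genes, against 12.0% of all genes called lower. The response of WT cells minus that of Kin- cells was -2.20 ± 0.22 for Gart (limma, adjusted p = 3.87e-07), -2.07 ± 0.24 for Ctps, -2.06 ± 0.38 for Ppat, -1.95 ± 0.22 for Umps, -1.64 ± 0.37 for Cad and -0.85 ± 0.16 for Paics. For Impdh1 it was -0.20 ± 0.17 (adjusted p = 0.566, 95% interval from -0.55 to 0.15). The difference at 24 h was smaller in arrays 1 to 14 alone, with 1 array per treated group. It was -0.65 there for Cad, -1.38 for Ppat and -0.71 for Paics. Over the 7 genes it ran there from -1.80 to 0.02. At 6 h it was called for 3 genes, against 6.54% of all genes: Ctps (-1.75 ± 0.24), Gart (-1.71 ± 0.22) and Paics (-0.67 ± 0.16). At 6 h Ppat had -1.12 ± 0.38 (adjusted p = 0.0657), Cad -1.01 ± 0.37 (0.093), Umps -0.59 ± 0.22 (0.105) and Impdh1 -0.44 ± 0.17 (0.115). The count at 6 h was 6 without array 4 and 5 without array 3 or array 19, and 6 with a term for the array set. With runs of consecutive array numbers as a random block all 7 passed at 6 h, with adjusted p of 0.0138 for Ppat, 0.0366 for Cad, 0.0167 for Umps and 0.0329 for Impdh1. At 2 h it was called for none of the 7, against 4.02% of all genes. Ctps had -0.70 ± 0.24 (adjusted p = 0.0978), which passed without array 4 (adjusted p = 0.0214). With the random block, Ctps (adjusted p = 0.0268) and Impdh1 (0.0466) passed. At an unadjusted p under 0.05 there were 3 of the 7 genes. By probe set there were 3 of 15, near the 16.9% of all probe sets.

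Untreated Kin- cells were compared with untreated WT cells to see whether the lines started alike. Of the 7 genes only Impdh1 was called, against 3.48% of all genes. Impdh1 read 8.50, 8.57, 8.34 and 8.46 in untreated Kin- cells, against 8.20, 7.87, 7.97 and 7.99 in untreated WT cells, with no overlap. It was higher in Kin- cells by 0.46 ± 0.11 (limma, adjusted p = 0.0243). The call was lost without array 13, 14, 16, 36 or 44, with adjusted p between 0.0613 and 0.0887 and changes between 0.41 and 0.46. In arrays 16 to 47 alone Impdh1 was called, and in arrays 1 to 14 the difference was 0.50 with adjusted p = 0.308. The differences of the other 6 genes lay between -0.13 for Umps and 0.37 for Ppat, whose 95% interval ran from -0.15 to 0.88.

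Across the 8 group means, Pearson's r between pairs of the 7 genes ran from 0.50 for Umps with Impdh1 to 0.995 for Cad with Ppat, and it was 0.94 for the neighbours Ppat and Paics. The points share the arrays, and WT cells at 6 and 24 h stand apart from the rest, so these values only describe. Of 2767 genes outside the set with a range of at least 1 unit over the 8 means, the 5 most like the mean pattern of the 7 (r over 8 group means) were Pno1 (0.999), Tomm40 (0.998), Nop56 (0.998), Ppif (0.997) and Exosc2 (0.996). Pno1 encodes a ribosome assembly factor, Nop56 a nucleolar protein, Tomm40 the mitochondrial import channel, Ppif a mitochondrial cyclophilin and Exosc2 an exosome subunit. Their changes at 24 h in WT cells lay between -1.87 for Exosc2 and -1.36 for Ppif.

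Other genes of nucleotide metabolism were taken from 7 named lists, 60 measured genes in all. In WT cells 7 were lower and 2 higher at 2 h, 24 lower and 4 higher at 6 h, and 29 lower and 10 higher at 24 h, with none called in Kin- cells at any of the 3 times. Of all named genes 7.25% were called higher at 2 h, 1369 of 12393 at 6 h and 16.3% at 24 h, beside the 8.44%, 11.1% and 16.3% called lower. The lists were chosen with earlier results of these data known, and the counts describe them.

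Among 9 genes that supply phosphoribosyl pyrophosphate (PRPP), the ribose phosphate donor of both routes, or catalyse other de novo steps, 6 were lower and 1 higher in WT cells at 24 h. The PRPP synthetase genes Prps1 and Prps2 changed by -1.82 ± 0.11 (adjusted p = 4.57e-11) and -1.59 ± 0.15, both lower. Prps1 stood at 8.58 ± 0.36 in WT cells at 24 h (SD, n = 3) and at 10.40 ± 0.04 in untreated WT cells (SD, n = 4). The median of the list was -0.61.

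Ctps2, which encodes the second CTP synthase, was the exception and moved opposite to Ctps. Its brighter probe set read 7.66, 8.71 and 8.45 on the WT 24 h arrays, against 6.14, 6.04, 7.15 and 6.52 on the untreated WT arrays. All 24 h arrays lay above all untreated ones, and the rise was 1.81 ± 0.31 (limma, adjusted p = 6.83e-05). At 2 h (-0.52 ± 0.31) and 6 h (0.09 ± 0.31) it did not pass, whereas Ctps was already lower at both times. The Kin- arrays at 24 h read 5.99, 5.99 and 6.42, and the WT response minus the Kin- response was 1.77 ± 0.43 (adjusted p = 0.00434). A second, dim probe set named Ctps2 stayed between 2.92 and 3.10 on all WT arrays and gave -0.00 ± 0.05 at 24 h, so the rise rests on 1 probe set.

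**Figure D4:**
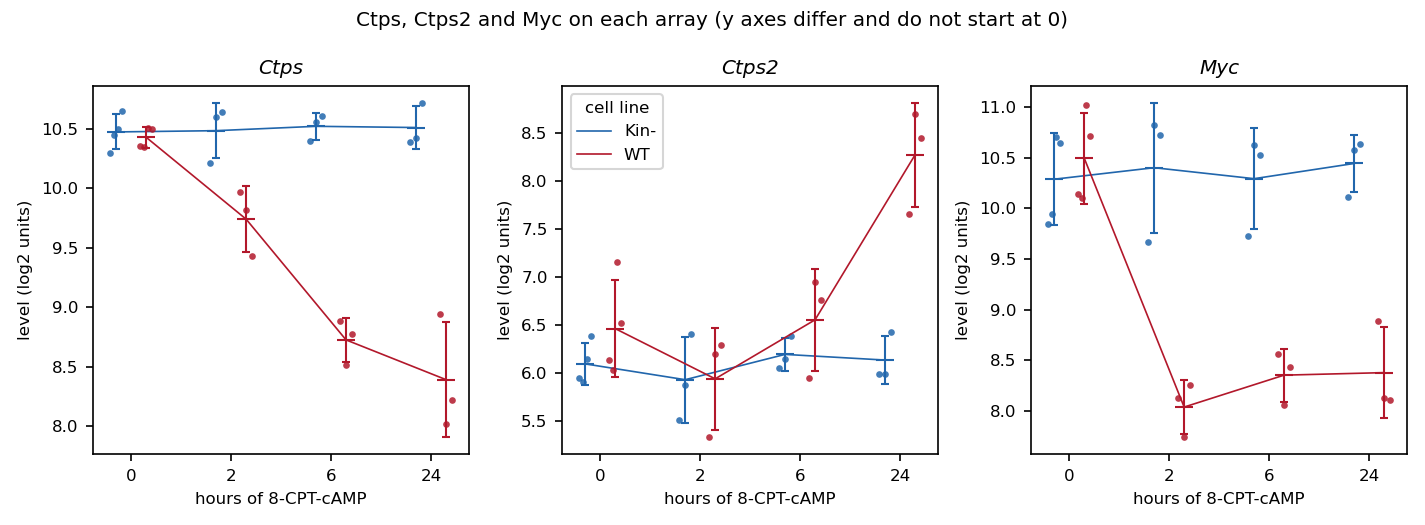
Levels of Ctps, of the brighter Ctps2 probe set and of Myc on every array, by hours of 8-CPT-cAMP, Kin- cells left of WT cells at each time; points are arrays and bars the mean ± SD. In WT cells Ctps2 has its highest mean, 8.27, at 24 h, when Ctps has its lowest, 8.39, and Myc is already at 8.04 at 2 h; levels of different genes are not compared.

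Folate enzymes provide the carbon units that purine ring assembly consumes. Of 5 measured, 4 were lower in WT cells at 24 h, with a list median of -2.24. The serine hydroxymethyltransferase genes Shmt1 and Shmt2 were lower, with changes of -3.40 ± 0.49 and -2.69 ± 0.22, and so was Mthfd2, a mitochondrial folate dehydrogenase, at -2.24 ± 0.22. Shmt1 and Shmt2 were already lower at 6 h, at -2.97 ± 0.49 and -1.87 ± 0.22. The 24 h changes in arrays 1 to 14 alone were -2.22 for Shmt1, -1.68 for Shmt2 and -1.45 for Mthfd2, all called. Mthfd2 was also higher in untreated Kin- cells than in untreated WT cells, by 1.03 ± 0.20 (adjusted p = 0.00542).

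Of 6 genes for deoxynucleotides, the precursors of DNA, 5 were lower at 24 h in WT cells and none higher. The ribonucleotide reductase genes Rrm2 and Rrm1 were lower, at -1.81 ± 0.15 and -1.68 ± 0.15, and so was Tyms, thymidylate synthase, at -1.44 ± 0.18. At 6 h 3 of the 6 were already lower, Rrm2 among them. Rrm1 had not passed at 6 h, where its change was 0.13 ± 0.15, whereas the 7 synthesis genes were all lower by then. In arrays 1 to 14 alone Rrm1 changed by -0.98 at 24 h.

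Salvage enzymes recover ready-made bases and nucleosides, and here the genes split: of 14, 6 were lower and 4 higher at 24 h in WT cells. Tk1, the cytosolic thymidine kinase, had a change of -2.66 ± 0.30, Ada, adenosine deaminase, of -1.56 ± 0.18, and Hprt, which recovers hypoxanthine and guanine, of -1.51 ± 0.09, all lower. Of 8 nucleotide kinase genes, 3 were lower and 1 higher: Nme1 (-0.71 ± 0.14) and Guk1 (-0.61 ± 0.12) were among the lower, and the adenylate kinase gene Ak3 was the higher (0.69 ± 0.10). Ak3 had been lower at 2 h (-0.67 ± 0.10) and at 6 h (-0.44 ± 0.10). Neither Nme1 (-0.44, adjusted p = 0.0505) nor Ak3 (0.46, adjusted p = 0.0972) passed at 24 h in arrays 1 to 14 alone, and Ak3 did not at 2 or 6 h.

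Of 12 breakdown genes, 2 were lower and 2 higher at 24 h in WT cells, and 8 did not pass, each count near the share of all genes called, 16.3% lower and 16.3% higher. Samhd1, which hydrolyses deoxynucleotide triphosphates, rose by 3.02 ± 0.40 (adjusted p = 3.27e-06), to 7.43 ± 1.10 in WT cells at 24 h (SD, n = 3), against 4.42 ± 0.36 in untreated WT cells (SD, n = 4). It was the largest rise in the 7 lists, although its 4 probe sets ranged from 0.07 to 3.69. In arrays 1 to 14 alone the brightest probe set rose by 1.59. The AMP deaminase genes differed: Ampd3 was higher by 0.94 ± 0.15 and Ampd2 lower, at -0.67 ± 0.20, at 24 h, after -1.51 ± 0.20 at 2 h. Without array 39 Ampd2 did not pass at 24 h (adjusted p = 0.117). The WT response minus the Kin- response at 24 h passed for neither gene. It was 0.57 for Ampd3 (limma, adjusted p = 0.0758) and -0.38 for Ampd2 (adjusted p = 0.474).

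Of 6 known regulators of nucleotide synthesis genes, 3 were lower and 2 higher at 24 h in WT cells. Myc read 8.12, 7.74 and 8.25 on the WT 2 h arrays, against 10.14, 10.11, 11.02 and 10.71 on the untreated WT arrays, with no overlap. The change of Myc was -2.46 ± 0.31 at 2 h (adjusted p = 8.58e-06), -2.14 ± 0.31 at 6 h and -2.12 ± 0.31 at 24 h (-1.23 in arrays 1 to 14 alone), while the median of the 7 synthesis genes was -0.30, -1.23 and -1.94 at those times. Foxo1, a forkhead factor active in non-growing cells, rose by 2.43 ± 0.22 at 2 h and 2.45 ± 0.22 at 24 h, and its relative Foxo3 by 1.26 ± 0.20 at 24 h. Whether any of these regulators acts on the synthesis genes was not tested.

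**Figure D5:**
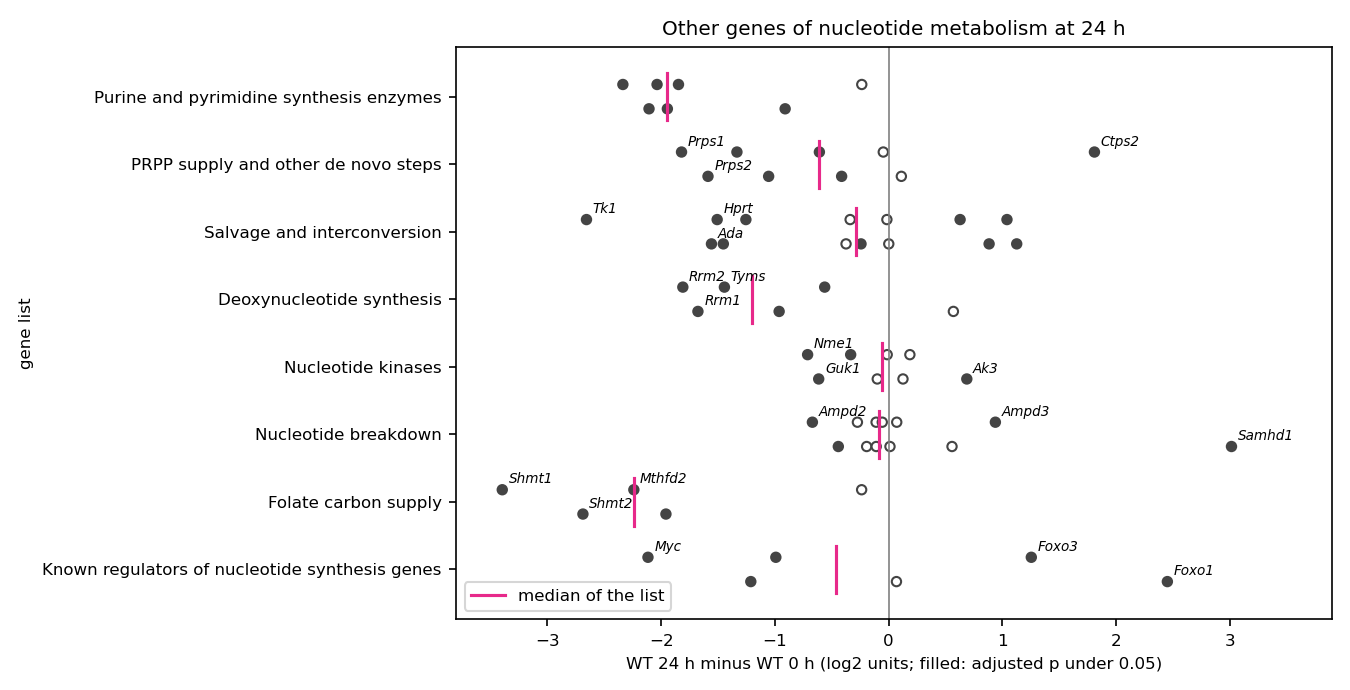
Change at 24 h in WT cells for the 7 synthesis genes (top) and 60 other genes of nucleotide metabolism by list; filled points passed at adjusted p under 0.05 and bars are list medians. The medians run from -2.24 for folate carbon supply to -0.06 for nucleotide kinases, and Ctps2, at 1.81, lies on the other side of 0 from Prps1 and Prps2 of its list.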

How the data were processed

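Gene expression of WT and Kin- S49 cells was read from 1 table of processed scores that the authors deposited, with 26 array columns and 22626 probe sets; for these deposited scores, neither the method, the software nor the scale is given in the sources used here. The scores run from 0.375 to 267. Their square root, from 0.612 to 16.4, was taken for a log2 intensity, given that range, with a power of 0.75 and untransformed scores as alternatives. Groups and array numbers came from the labels; 0 columns were left unmapped. Probe sets were named from the platform annotation: 20380 had 1 symbol, 691 several and 1555 none, and none was named from several symbols.

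In R 4.3.3, lmFit and eBayes of limma 3.58.1 were run on all probe sets with group means as the model and no covariate, for 12 comparisons, with Benjamini-Hochberg adjustment over all probe sets within each and 0.05 as threshold. The fit was tested on simulated data. The number of arrays, 3 or 4 per group, limits the precision. Alternatives were the array set as a term or alone, runs of consecutive array numbers over 0, 2, 6 and 24 h as a random block (duplicateCorrelation), array weights, quantile normalization, a filter at a mean root of 4, only the groups compared, the second brightest probe set, and leaving out each array. The runs were read from the array numbers in the labels, which do not say that a run shares a culture. Named genes were all members and, from each other list, up to 3 genes with the largest change among those called at 24 h in WT cells; other genes (Itgam, Prkaca, Prkacb) serve as checks, and the 5 genes of like pattern were ranked by Pearson's r. The members and lists were chosen with earlier results of these data known. Promoters come from RefSeq's GRCm38.p6 annotation, and all 7 measured genes had a window.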

Additional observations from a re-analysis of the deposited data

Results flagged for a closer look

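A test of the difference between the lines, limma's WT response minus Kin- response, passed for 9 values of the synthesis genes. At 24 h these were -2.20 for Gart, -2.07 for Ctps, -2.06 for Ppat, -1.95 for Umps, -1.64 for Cad and -0.85 for Paics, and at 6 h -1.75 for Ctps, -1.71 for Gart and -0.67 for Paics. The untreated groups of 4 arrays were also examined for a single array far from the other 3, over 30 groups of 4, and 0 such arrays were found. Groups of 3 were not examined in this way.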

How the results depend on the processing

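Counts are of the 7 synthesis genes called. Leaving out each of the 26 arrays gave 0 to 3 at 2 h in WT cells, 5 to 7 at 6 h and 6 to 6 at 24 h, 3 to 6 from 2 to 6 h, 1 to 5 from 6 to 24 h, 0 to 0 in Kin- cells at each time, and 0 to 1 between the untreated lines. For the WT response minus the Kin- response it gave 0 to 1 at 2 h, 3 to 6 at 6 h and 6 to 6 at 24 h. Arrays 1 to 14 alone hold 1 array per treated group, so median changes of the 7 genes are given for them in place of counts. These were -0.12 at 2 h, -0.72 at 6 h and -1.41 at 24 h in WT cells. They were -0.72 from 2 to 6 h, -0.19 from 6 to 24 h and 0.03 between the untreated lines. For the difference of responses they were -0.82 at 6 h and -1.38 at 24 h. Arrays 16 to 47 alone gave counts of 6 from 6 to 24 h (5 lower, and Impdh1 higher by 0.34), and 3 at 2 h and 6 at 6 h for the difference of responses. The second brightest probe set gave 1 at 2 h in WT cells and 6 at 6 h for the difference. Ctps and Impdh1, with 1 probe set each, entered this setting with their main values. The 1 at 2 h was Ctps, so it adds no second probe set. Array weights gave 6 from 6 to 24 h, and 2 at 2 h and 7 at 6 h for the difference; runs of consecutive array numbers as a random block gave 2 and 7 there, and only the groups compared gave 2 and 6, with 1 from 6 to 24 h. The array set as a term gave 6 at 6 h for the difference. These runs hold 1 array each of 0, 2, 6 and 24 h of 1 line, with arrays 13 and 14 apart, and whether a run shares a culture is not given in the labels. The cause of these shifts was not tested, except that a set alone has fewer arrays. Of 3192 single-gene values recomputed under 38 settings, 3018 kept direction and side of the threshold, 53 no longer passed, 61 passed in addition, 60 moved without a call, and 0 called values changed sign. The 3018 include the main values of Ctps and Impdh1 repeated under the second brightest probe set.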
